A study of Homo sapiens with 4 samples.

Results

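A set of 6 genes that drive, restrain or mark the cell division cycle was examined in a list of ATAC-seq peaks from a breast cancer line: the inhibitors CDKN1A and CDKN1B, the cyclins CCNE1, CCNA2 and CCNB1, and the proliferation marker MKI67. A site was assigned to a gene when its summit, the point of highest signal, lay inside the gene or within 10 kb of it, with gene positions of the hg19 genome given to the nearest kb. This took 19 of the 371521 listed summits, in 13 of 197823 regions, where a region is a listed start and end that can hold several summits. At least 1 summit was found at 5 of the 6 genes, and none at MKI67.

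The assay was ATAC-seq, in which the Tn5 transposase inserts adapters into accessible DNA. All 4 samples came from T47D-MTVL, a T47D breast cancer derivative with 1 integrated copy of a luciferase gene driven by the MMTV promoter. The multiH1sh group (2 samples, knock-down) expressed a short hairpin RNA (shRNA) aimed at several variants of linker histone H1, and the RDsh group (2 samples, control) a random shRNA. From each sample 75000 cells were taken, and the sources used here do not say whether the samples of a group were separate cultures, or how many clones a line stands for. A single peak list was available for the series. It is labelled as differential, by its name for multiH1sh and by its heading for 225sh, in both against RDsh, and that 225sh is the multiH1 knock-down was assumed. How the control entered the list is not stated, so whether a listed site is open in both groups or more open in the knock-down cannot be told from it. The list holds no value per sample, so neither a level in knock-down or control cells nor a spread between replicates can be given for any gene, and no test was possible. The RNA or protein of these genes was not analysed here, and the labelled cell line was not checked against marker genes.

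Progress through the cell cycle is driven by cyclin-dependent kinases, which need a cyclin partner. Cyclin E1 (CCNE1) acts at the entry into S phase, cyclin A2 (CCNA2) in S phase and towards mitosis, and cyclin B1 (CCNB1) at the entry into mitosis. The inhibitors p21 (CDKN1A, a well-known target of p53) and p27 (CDKN1B) bind cyclin and kinase complexes and hold them back. MKI67 encodes the Ki-67 protein, which is present in dividing cells and is scored in breast tumours. Linker histone H1, the target of the knock-down, sits on nucleosomes at the entry and exit of the DNA and is known for its part in chromatin compaction.

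All summits of the 3 cyclin genes lay at the starts of the genes, and MKI67 had none, so the promoters of these 4 genes are shown for their sequence. They are from RefSeq, build GRCh38.p14, another build than that of the list, and run from 250 bases before to 50 bases after 1 annotated start. No position was carried over between the builds. Capitals mark every match, on either strand, to the motifs searched, which follow. The cell cycle homology region (CHR) was searched as TTTGAA and also, in a like form, as TTCGAA. The CCAAT box was searched by these letters, the GC box as GGGCGG and, for the TATA box, the letters TATAAA were used. An E2F-like match was any of TTTGGCGC, TTTCGCGC, TTCCCGCC and TTTCCCGC.
CCNE1 (chr19:29811741-29812040, plus strand): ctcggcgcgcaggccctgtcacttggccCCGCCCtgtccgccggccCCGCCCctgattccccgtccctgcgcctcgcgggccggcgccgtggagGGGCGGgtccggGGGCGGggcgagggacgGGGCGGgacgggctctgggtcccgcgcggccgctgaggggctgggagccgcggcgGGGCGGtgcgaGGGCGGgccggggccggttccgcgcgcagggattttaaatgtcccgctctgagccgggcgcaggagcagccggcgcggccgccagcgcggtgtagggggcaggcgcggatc
CCNA2 (chr4:121823834-121824133, minus strand): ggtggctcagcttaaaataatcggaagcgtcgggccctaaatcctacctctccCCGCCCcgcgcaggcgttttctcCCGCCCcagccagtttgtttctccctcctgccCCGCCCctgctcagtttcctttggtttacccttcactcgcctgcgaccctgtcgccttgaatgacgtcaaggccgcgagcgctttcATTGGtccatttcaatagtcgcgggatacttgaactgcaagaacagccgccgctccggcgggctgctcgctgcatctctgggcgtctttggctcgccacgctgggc
CCNB1 (chr5:69166900-69167199, plus strand): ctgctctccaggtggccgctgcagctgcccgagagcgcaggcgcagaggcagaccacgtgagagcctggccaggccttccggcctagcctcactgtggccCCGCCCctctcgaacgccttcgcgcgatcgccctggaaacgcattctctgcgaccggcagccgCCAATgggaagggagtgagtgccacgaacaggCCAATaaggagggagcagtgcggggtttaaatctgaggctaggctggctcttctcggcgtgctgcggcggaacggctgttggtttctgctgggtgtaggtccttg
MKI67 (chr10:128126374-128126673, minus strand): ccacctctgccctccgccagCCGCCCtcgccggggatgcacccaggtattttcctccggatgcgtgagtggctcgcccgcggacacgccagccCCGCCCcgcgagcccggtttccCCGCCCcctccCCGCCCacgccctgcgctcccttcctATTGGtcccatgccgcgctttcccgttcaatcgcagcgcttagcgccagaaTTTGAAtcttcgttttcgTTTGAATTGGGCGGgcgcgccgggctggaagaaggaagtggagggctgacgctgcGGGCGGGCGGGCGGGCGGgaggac

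A GC box was present in all 6 promoters, CDKN1A and CDKN1B included, and in 44.6% of the 27305 promoters of the table (1 start per gene). CCNE1 had 7 matches, MKI67 had 9, several of them overlapping in a repeat after the start, and CDKN1A had 4. The CCAAT box, which is bound by the factor NF-Y, was found in CDKN1B (3 matches), CCNB1 (2), MKI67 (2) and CCNA2 (1), but not in CDKN1A or CCNE1. Over all promoters 35.7% held it. The CHR letters were found only in MKI67 among the 6, where the 2 matches began 47 and 29 bases before the start and the second overlapped a CCAAT box on the opposite strand by its last letter. Over all promoters 16.6% held the CHR letters, so 1 of 6 is close to the general share for these letters. Only TTTGAA and TTCGAA were searched, so a CHR of another form, at CCNA2, CCNB1 or elsewhere, would not have been seen. No TATAAA and no E2F-like match was found in these 6 windows, against 12.0% and 5.07% of all promoters. These matches are letters in a window and not sites of binding.

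Other cell cycle genes were set beside the 6 by promoter only, since no gene positions of the list's build were used beyond those of the 6 genes. Of 34 such genes (other cyclins and kinases, inhibitors, E2F and retinoblastoma family members, and mitotic genes), 25 were in the promoter table. In these 25 the GC box was found in 19 (76.0%), the CCAAT box in 12 (48.0%), the CHR letters in 8 (32.0%), an E2F-like match in 8 (32.0%) and TATAAA in 1 (4.0%). The median GC content of the 6 promoters was 67.5%, against 63.7% in the 25 genes and 58.3% over all promoters. CCNE1 had the most GC-rich promoter of the 6, at 81.0% GC with 47 CpG pairs, and only 1.76% of all promoters had as much GC. CCNA2 had the least, at 61.0% with 26 CpG pairs, and 43.4% of promoters had as much. The promoter of MKI67, where no summit was listed, had 69.7% GC and 36 CpG pairs, and that of CDKN1B had 62.3% and 29.

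The values of single summits are those of the authors. The fold enrichment is the signal at the summit over a background, and each fold corresponded to a whole number of reads over 1 common background of 2.01 reads, so that 1 read added 0.332 to the fold. A fold given here is therefore not a ratio to the control cells at the same site. Reads are given below with an exact 95% Poisson interval, which covers counting error only, since amplified reads, counted with no molecular identifiers, can be copies of one another. The lowest listed summit had 10 reads and a fold of 3.66. A summit of 9 reads would have a fold of 3.32 and was not listed. The Poisson intervals do not allow for this selection, which matters most for summits close to 10 reads. Distances are measured along transcription from the gene's start edge, the end of its span where transcription begins, and carry the rounding of that edge to the kb.

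CDKN1A, on chromosome 6 from 36644 to 36655 kb, had the most summits, 8 in 8 separate regions that covered 2111 bp. The strongest lay at position 36646482, 2.48 kb inside the gene, in a region from 36646333 to 36646570. It had 25 reads (16.2 to 36.9), a fold of 8.64 and a −log10 q of 16.74. The summit at 36647477, 3.48 kb inside, had 24 reads (15.4 to 35.7) and a fold of 8.31. Between these and just past them lay the summits at 36646877 and 36648051, each with 13 reads (6.9 to 22.2) and a fold of 4.65. These 4 summits thus formed a group over less than 2 kb, from 2.48 to 4.05 kb inside the gene's span. Their read counts alternated, but the counting intervals of all 4 overlapped, so their heights cannot be called different. CDKN1A is known to have several transcription start sites, of which the edge used here is the outermost.

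Further into CDKN1A the summit at 36651820 had 14 reads (7.7 to 23.5), a fold of 4.99 and the widest region of the gene, 467 bp. The remaining 3 were low. Those at 6.53 kb and 10.32 kb inside the gene had 12 and 10 reads. The only one before the gene had 12 reads and lay 6.89 kb upstream of the edge. In the RefSeq table (GRCh38) the non-coding RNA gene PANDAR and a pseudogene, LAP3P2, lie within 10 kb before CDKN1A, and the non-coding RNA gene DINOL lies within it, so a summit here may belong to more than 1 gene.

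CDKN1B, on chromosome 12 from 12870 to 12875 kb, had 1 summit, and it lay outside the gene. It was at 12878326, 3.33 kb past the gene's end, in a region of 137 bp, the narrowest of the 13. It had 11 reads (5.5 to 19.7), a fold of 3.99 and a −log10 q of 3.98, 1 read above the lowest listed value. The RefSeq table places a non-coding RNA gene and then APOLD1 next after CDKN1B, both within 10 kb, so this summit is close to other genes as well. GPR19 lies on the other side, before its start. At the start of CDKN1B itself no summit was listed, and the next one upstream was 155 kb away. Of the 8 CDKN1A summits, 7 lay inside its span, which is taken from the outermost of its known starts, and the only CDKN1B summit lay outside. This contrast between the 2 inhibitors rests on 1 CDKN1B summit close to the lowest listed value.

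CCNE1, on chromosome 19 from 30302 to 30315 kb, had 6 summits in 2 regions, all of them within 1.49 kb of the start edge. The first region, from 30302294 to 30303109, was the widest of the 13 (816 bp) and held 5 summits. In their order along the gene these had 11, 16, 16, 19 and 12 reads, with the highest (11.4 to 29.7) at 30302832 and a fold of 6.65. Neighbouring summits within it were 172, 251, 96 and 172 bp apart. The second region, from 30303252 to 30303527, had 1 summit at 30303493, also with 19 reads and a fold of 6.65. The rest of the gene and both 10 kb flanks had none, and the RefSeq table gives no other gene within 10 kb of CCNE1.

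CCNA2, on chromosome 4 from 122737 to 122745 kb and transcribed towards lower positions, had 1 summit. It lay at 122745141, 0.14 kb upstream of the start edge, in a region from 122744943 to 122745239. With 22 reads (13.8 to 33.3), a fold of 7.65 and a −log10 q of 13.61 it was the strongest summit of the 3 cyclins. The body of the gene held no summit. EXOSC9 overlaps the end of CCNA2 in the RefSeq table, at the side away from this summit, and BBS7 lies within 10 kb before the start of CCNA2.

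CCNB1, on chromosome 5 from 68462 to 68474 kb, had 3 summits in 1 region of 483 bp from 68462652 to 68463134. They lay 0.7, 0.82 and 1.07 kb past the start edge and had 15, 17 and 15 reads. The middle one, at 68462819, had an interval of 9.9 to 27.2 reads, a fold of 5.98 and a −log10 q of 8.82. The 3 summits were 121 and 248 bp apart and were nearly equal in height. As at CCNA2, nothing was listed in the rest of the gene. The RefSeq table gives only non-coding RNA genes within 10 kb of CCNB1.

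MKI67, on chromosome 10 from 129894 to 129925 kb and also transcribed towards lower positions, is the longest of the 6 at 31 kb and had no summit in its 51 kb window. The nearest listed summits were at 129948470, 23.5 kb before its start edge, with 14 reads, and at 129845849, 48.2 kb past its end, with 29 reads and a fold of 9.97. If the list is complete down to its lowest value, and the control removed no site from it, no site at MKI67 reached 10 reads. This does not show closed chromatin, because sites under that level are not in the list. How the control entered the list is not stated either, so a site open in both groups may be missing from it.

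**Figure D1:**
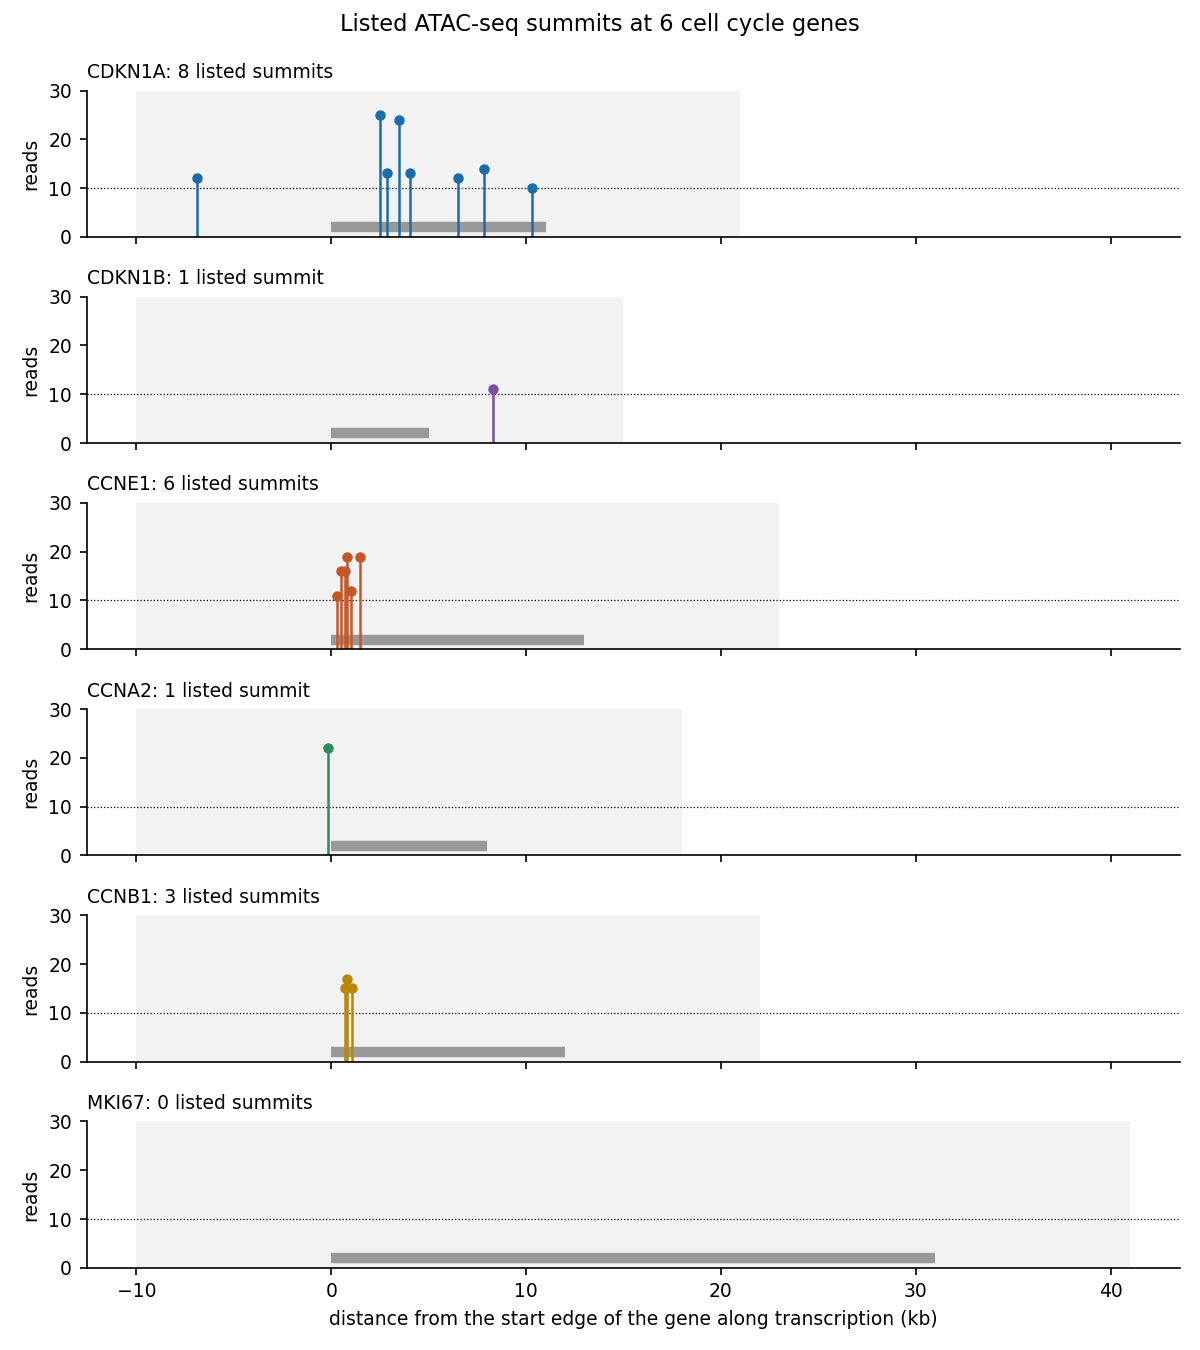
Reads at each listed summit (vertical axis, stems) against the distance from the gene's start edge along transcription in kb, in 1 panel for each of the 6 genes. Grey bars mark the gene, light shading its 10 kb margins and the dotted line the lowest listed value of 10 reads. The summits of the 3 cyclins sit at the left end of the gene, and MKI67 has none. Those of CDKN1A are spread along its span, with distance taken from the outermost of its known starts.

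Set side by side by their strongest summit, the genes ran from CDKN1A (25 reads) through CCNA2 (22), CCNE1 (19) and CCNB1 (17) to CDKN1B (11). The counting intervals of all 5 overlapped, also those of the first (16.2 to 36.9) and the last (5.5 to 19.7), and without replicates no neighbours in this order can be called different. The median over the 19 summits was 15 reads and a fold of 5.32, the same as over the whole list. With 20 reads or more were 3 of the 19 summits (15.8%, 95% Wilson interval 5.52 to 37.6%), against 26.5% of the list. The interval takes the summits as independent, which those of the same region are not, so it is too narrow. The 3 were the 2 high summits of CDKN1A and that of CCNA2. The strongest summit of CDKN1A was matched or exceeded by 12.2% of all listed summits, that of CCNA2 by 19.3%, those of CCNE1 by 31.1%, that of CCNB1 by 42.8% and that of CDKN1B by 91.6%. By height the sites at these genes were therefore within the bulk of the list. The median width of their regions was 238 bp, against 208 bp over all regions.

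**Figure D2:**
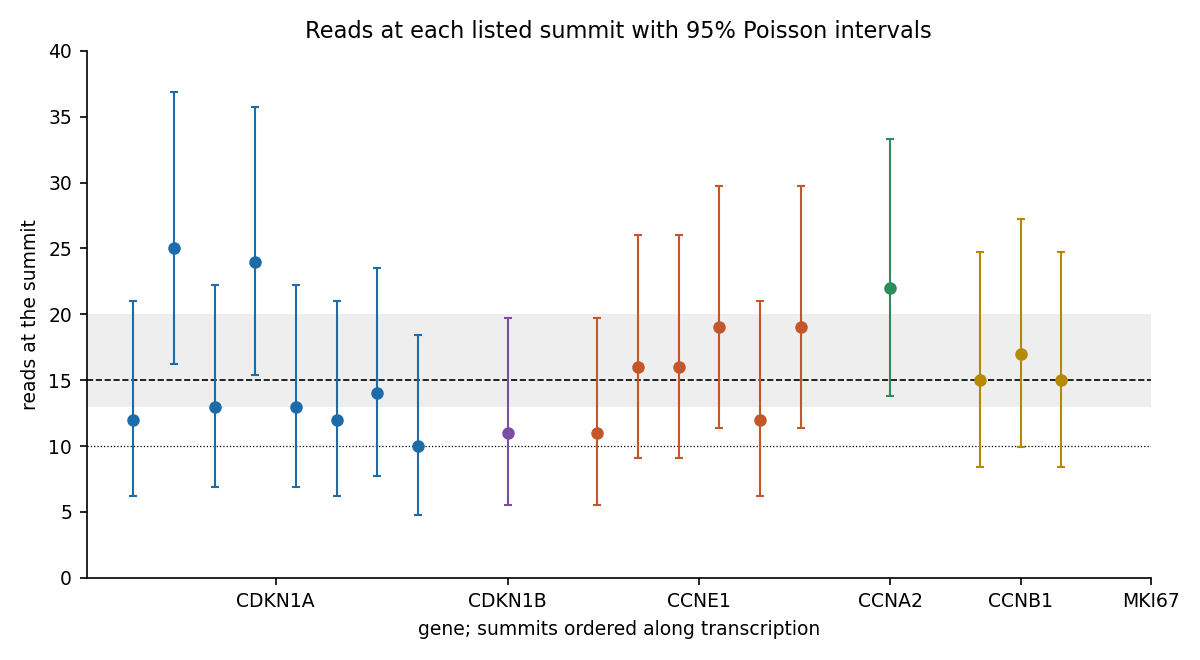
Reads at each of the 19 summits (points) with the exact 95% Poisson interval (bars), grouped by gene and ordered along transcription. Shading marks the 25th to 75th percentile of all listed summits (13 to 20 reads), the dashed line their median (15) and the dotted line the lowest listed value (10); the intervals of the 5 strongest summits overlap, and MKI67 has no point.

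By position, 10 of the 19 summits (52.6%, Wilson interval 31.7 to 72.7%) lay within 2 kb of a start edge, in zones that made up 12.0% of the 200 kb examined. Summits of 1 region are not independent, so this interval is too narrow. The share of all listed summits that lie within 2 kb of a gene start was not computed. Whether 52.6% is particular to these genes can therefore not be told. All 10 belonged to the cyclins: 6 of 6 at CCNE1, 3 of 3 at CCNB1 and 1 of 1 at CCNA2. None of the 9 summits at the inhibitors lay so near the edge used. For CDKN1A that edge is the outermost of several known starts, and distances from its inner starts were not measured. Whether its summits lie at a promoter in use, as at the cyclins, is therefore not answered by this share. Within 5 kb of a start edge the share was 73.7% (14 summits), and the 4 added ones were the group of CDKN1A described above. Counted by region, 4 of 13 lay within 2 kb, so the majority by summits rests on the regions of CCNE1 and CCNB1 that hold several summits. Inside the gene spans, as rounded to the kb, lay 16 of the 19 summits, 2 were upstream and 1 was past a gene's end. The RefSeq lengths of CCNE1 and CCNB1 differ from these spans by 678 and 904 bp. Summits less than 1 kb past an edge, as at these 2 genes, can therefore not be placed inside or upstream with certainty.

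How full such windows are elsewhere was taken from windows of the same width placed end to end over chromosomes 1 to 22 and X, genes or not. The 8 summits of CDKN1A compare with 36.5% of 31 kb windows that had at least 1 summit and 11.0% that had at least 8. For the 6 summits of CCNE1 the values were 37.4% of 33 kb windows with at least 1 and 14.1% with at least 6. For the 3 of CCNB1 they were 36.9% of 32 kb windows and 21.5% with at least 3. With each region counted once, the share of windows as full was 24.6% for CCNE1, 36.8% for CCNB1 and 8.68% for CDKN1A. The ranks of CCNE1 and CCNB1 thus depend on regions that hold several summits. A single summit, as at CCNA2 and CDKN1B, was reached or passed in 34.8% of 28 kb windows and in 33.0% of 25 kb windows. For MKI67, 45.1% of 51 kb windows had at least 1 summit, and the others, like MKI67, had none. These shares describe the list. Windows that hold the start of a gene were not separated from those that do not, and windows across the centromeres were kept.

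Against their own chromosome the picture changed for some genes. As many summits as at CDKN1A were found in 4.63% of the windows of chromosome 6, and as many as at CCNA2 in 14.6% of those of chromosome 4, both lower than over all chromosomes. On chromosome 19, whose windows were more often occupied (67.6% with at least 1 summit), 37.6% had as many as CCNE1. For CCNB1 the share on chromosome 5 was 18.8%, and for CDKN1B it was 42.3% on chromosome 12. On chromosome 10, 53.1% of windows of the size of that of MKI67 had a summit.

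**Figure D3:**
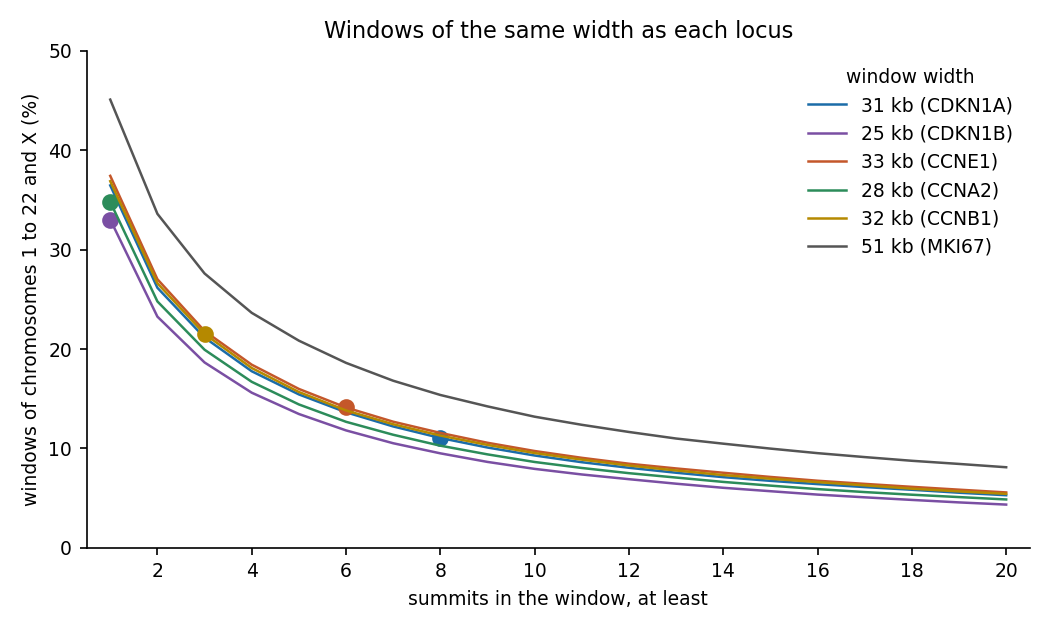
Share of windows of chromosomes 1 to 22 and X (vertical axis, %) with at least a given number of summits (horizontal axis), 1 line for the window width of each gene. Points mark the number at each gene, from 1 at CDKN1B (33.0%) and CCNA2 (34.8%) to 8 at CDKN1A (11.0%); MKI67, with 0, has no point.

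The surroundings of the genes ranged widely. In the 1 Mb around CDKN1A 267 summits were listed, around CCNE1 129, around CCNB1 42, around CCNA2 10, around MKI67 9 and around CDKN1B 6. A 1 Mb window had a median of 20 summits and a mean of 125, and 12.0% of windows had as many as the surroundings of CDKN1A. The 2 genes with the most summits thus lay in the 2 densest surroundings, and whether the number at a gene follows that of its neighbourhood was not tested. CCNA2 had its summit of 22 reads in sparse surroundings: the next listed summits were 46.7 kb upstream, with 25 reads, and 14.5 kb past the gene's end, with 19 reads. Around CDKN1B the next ones, 155 kb upstream and 60.4 kb past the gene's end, had 11 and 14 reads. Beside CDKN1A the next ones outside its window were 12.9 kb upstream of the gene and 12.2 kb past its end, with 11 and 10 reads.

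**Figure D4:**
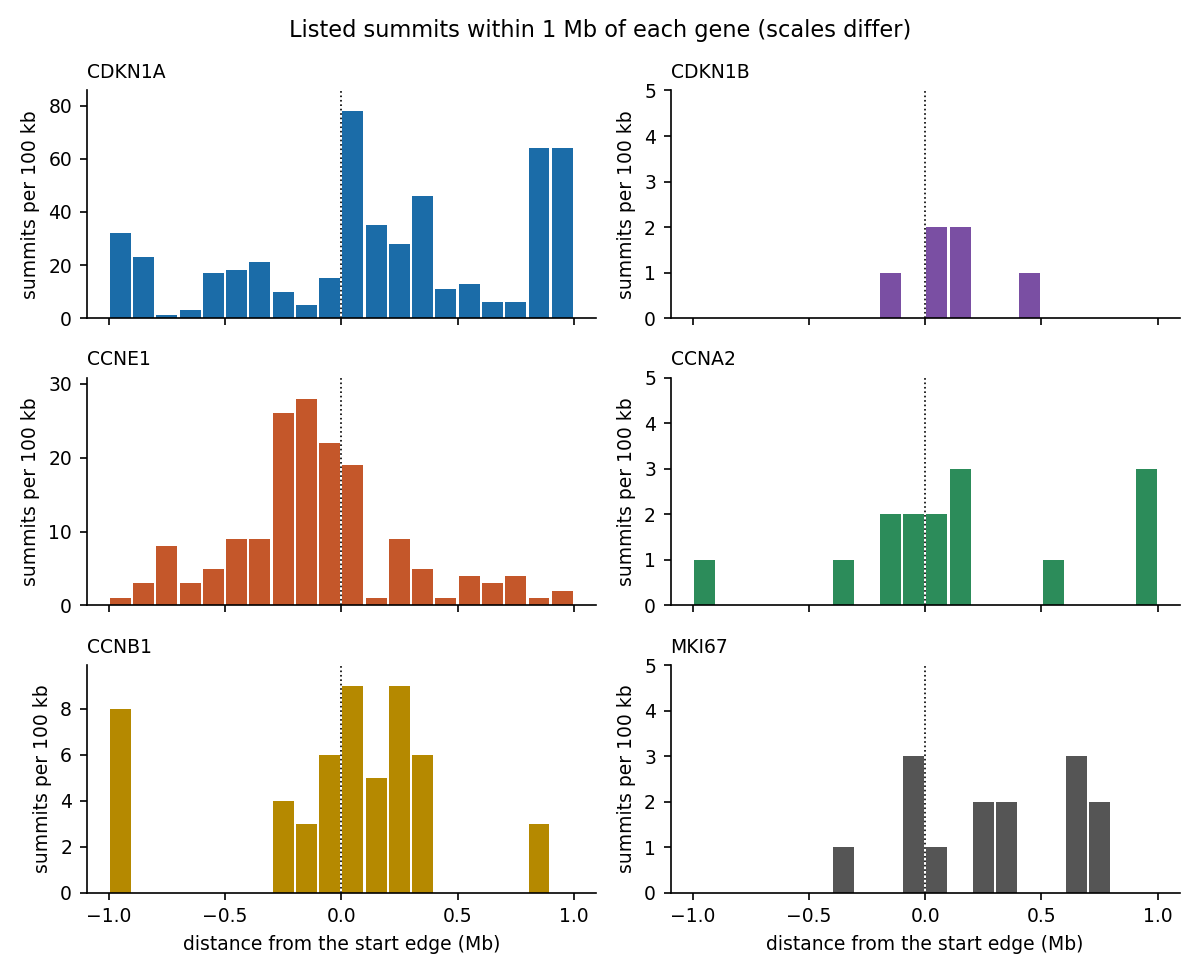
Listed summits per 100 kb (bars, with vertical scales that differ between panels) against the distance from the gene's start edge in Mb along transcription, up to 1 Mb on each side, with the start edge dotted. CDKN1A and CCNE1 stand in well-filled stretches, with 78 summits in the 100 kb from the start edge of CDKN1A, whereas no bar around CDKN1B, CCNA2 or MKI67 exceeds 3.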

How the data were processed

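The submitters' processing notes name Bowtie 1.1.2, MACS2 and the hg19 build for the ATAC-seq reads of the 4 samples. The sources used here do not give the version or options of MACS2, or any pooling of samples. The deposited narrowPeak list gives, for each summit, the fold (a ratio of signal to background), −log10 p and −log10 q, and a score. Positions are printed from 1.

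Reads at a summit were recovered from fold and p. The fold was taken as (reads + 1) / (background + 1) and p as a Poisson tail. All 182 pairs of fold and p in ordinary floating-point range (370150 summits) were solved, and reads were then taken from the fold. Read numbers were whole within 3.2e-05 below 400 reads. The solver was tested on simulated data (300 summits with 1 background, 300 with differing ones) and recovered 100% of each. The total depth per sample is unknown.

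The 6 genes, their positions and all lists were chosen with earlier results of these data known. Strands were checked against the RefSeq promoter table. All 6 genes are named, and at each gene the 5 summits of highest fold and all within 2 kb of the start edge. Promoters are the first start listed per gene, which need not be the start edge used for distances. Of the genes planned for comparison, positions in the list's build were not used here. No test was run, as the list has no value per sample. Alternatives were margins, start distances, each region counted once, higher reads or fold, and other windows. Python 3.11.15, numpy 2.4.6, scipy 1.17.1, pandas 2.3.3 and matplotlib 3.10.9 were used.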

Additional observations from a re-analysis of the deposited data

How the results depend on the processing

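The total of 19 summits became 29 with a margin of 20 kb, 8 among summits above the list's median fold and 3 among those of at least 20 reads, as these settings add or remove summits. It was 18 with a margin of 5 kb, 13 with each region counted once and 19 by overlap of regions. The wider margin gave CDKN1A 14 summits, CCNB1 5 and CCNA2 2, and counting regions once gave CCNE1 2 and CCNB1 1. MKI67 had 0 in each of these 6 settings. The share within 2 kb of the start edge (52.6%) was 73.7% within 5 kb, 30.8% with each region counted once, 36.8% within 1 kb and 33.3% at 20 reads or more. The median over the 6 genes of the share of windows with as many summits (27.3%) was 79.2% among windows with at least 1 summit, by construction, and 27.3 to 33.8% under the other 3 settings. The highest fold (8.64, CDKN1A) was 7.65 (CCNA2) within 2 kb of the start edge, because the high summits of CDKN1A lie 2.48 and 3.48 kb from its outermost edge. No paired analysis was possible because no sample has a value of its own here, and leaving out a sample was not possible either. The limit of 10 reads over a background of 2.01 hides weaker sites at every gene, and gene edges are known here only to the kb.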
